A study of Homo sapiens with 15 samples.

Results

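The plasminogen activation system was followed as 9 genes in RNA sequencing of MDA-MB231 cells, an established line from a human triple-negative breast tumour. The genes were taken by symbol, out of 60651 genes in the table of the depletion dataset and 23792 in that of the overexpression dataset, and all 9 were listed in both. They are the activators PLAU and PLAT, the receptor PLAUR, the serpins SERPINE2, SERPINB2, SERPINB8 and SERPINB5, the thrombin receptor THBD and the clearance receptor LRP1.

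The depletion dataset held 3 libraries of each of the groups SG1 and SG3, both labelled as a KIF20A knockdown, and 3 CTRL libraries labelled as wild type. The overexpression dataset held 3 libraries labelled KIF20A_OE, with overexpressed KIF20A, and 3 EV libraries labelled as wild type. KIF20A encodes a kinesin that acts at the central spindle in cytokinesis, and the series asked for its function in triple-negative breast cancer. The sources used here do not give what SG1, SG3 and EV stand for, how KIF20A was lowered or raised, or whether the cells were clones or pools. Whether replicates are separate cultures is not stated either, so each p-value refers to the spread of these libraries, which may be no more than technical.

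Plasminogen is a circulating zymogen that urokinase and tissue plasminogen activator cut to plasmin, a broad protease that dissolves fibrin and takes part in the breakdown of extracellular matrix. Urokinase works mainly on the cell surface, bound to its lipid-anchored receptor, and serpins inactivate both activators by a covalent complex that LRP1 carries into the cell. In breast cancer the urokinase arm of the system is known for its link with invasion.

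Depletion libraries held 40.9 to 51.0 M counts (M for 1000000), and overexpression libraries held 16.0 to 22.2 M fragments. KIF20A itself had 1348, 269 and 896 fragments per 1000000 (FPM) in the libraries labelled KIF20A_OE and 101, 143 and 124 FPM in EV. In the depletion dataset it averaged 121 ± 27.9 counts per 1000000 (CPM) in SG1, 75.4 ± 13.1 CPM in SG3 and 162 ± 8.75 CPM in CTRL (SD, n = 3 each). All SG1 and SG3 libraries lay below all CTRL libraries. Even so, KIF20A was not called in SG1 (log2 fold change -0.42, edgeR adjusted p = 0.913) or SG3 (-1.10, edgeR adjusted p = 0.330) against CTRL. Those values are adjusted over all genes tested, while KIF20A is the target that the labels name. Its unadjusted edgeR p was 0.0301 in SG1 and 1.97e-05 in SG3. The missing call therefore does not show that KIF20A was unchanged. The libraries labelled KIF20A_OE differed from all 12 others in genes that mark the line. CDKN2A, CDKN2B and MTAP, neighbours on chromosome 9, chosen after their values were seen, had 0 counts in each of those 12 libraries and summed to 313 to 388 FPM in KIF20A_OE. CD44, a surface glycoprotein that the line carries, had 0.125, 0.316 and 1.23 FPM in KIF20A_OE and 788, 615 and 523 FPM in EV. The 5 markers expected in the line, VIM, CD44, AXL, MSN and CAV1, summed to 610 to 1084 FPM in KIF20A_OE and 6059 to 8014 FPM in EV, and to 5243 to 6203 CPM over the depletion libraries. The 8 luminal, epithelial and basal markers expected to be low in the line went both ways. They summed to 63.3 to 71.3 FPM in KIF20A_OE, 86.1 to 120 FPM in EV and 124 to 187 CPM over the depletion libraries. CDH1 was higher in KIF20A_OE than in EV (log2 fold change 1.79, limma adjusted p = 0.000734). EPCAM (-2.88), ERBB2 (-0.63) and KRT14 (-1.06) were lower, and GATA3 and PGR were not called. Every value of KIF20A_OE below is therefore that of the libraries so labelled, and the overexpression and these other differences cannot be told apart.

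Because 6 members were lower in KIF20A_OE than in EV, the stretches upstream of some of them are shown for comparison. They are the 250 bases before the start, 5′ to 3′ on the gene's strand, from RefSeq on GRCh38.p14, for the 3 members with the largest falls that have an entry (PLAU, SERPINB8, PLAUR) and the member with the smallest called fall (LRP1). Capitals mark the AP-1 motif TGAGTCA and the Sp1 motif GGGCGG, each searched on both strands. The windows are chr10:73910882-73911131 on the plus strand for the second of 2 starts of PLAU, chr18:63969831-63970080 on the plus strand for SERPINB8, chr19:43670170-43670419 on the minus strand for PLAUR and chr12:57128233-57128482 on the plus strand for LRP1.
PLAU: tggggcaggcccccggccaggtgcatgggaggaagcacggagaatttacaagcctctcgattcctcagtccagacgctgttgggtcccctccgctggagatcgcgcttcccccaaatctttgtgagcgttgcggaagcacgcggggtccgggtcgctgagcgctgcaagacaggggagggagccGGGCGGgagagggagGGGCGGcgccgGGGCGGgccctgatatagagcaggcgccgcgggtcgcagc
SERPINB8: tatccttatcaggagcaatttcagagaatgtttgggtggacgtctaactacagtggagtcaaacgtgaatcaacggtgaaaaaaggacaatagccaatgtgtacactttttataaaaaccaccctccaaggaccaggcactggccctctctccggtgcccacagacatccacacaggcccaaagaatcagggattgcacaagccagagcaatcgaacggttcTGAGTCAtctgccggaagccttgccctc
PLAUR: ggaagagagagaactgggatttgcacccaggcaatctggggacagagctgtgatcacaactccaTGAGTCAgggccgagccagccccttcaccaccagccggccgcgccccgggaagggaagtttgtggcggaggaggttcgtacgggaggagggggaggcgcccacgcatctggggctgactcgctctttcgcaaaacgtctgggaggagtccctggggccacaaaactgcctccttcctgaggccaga
LRP1: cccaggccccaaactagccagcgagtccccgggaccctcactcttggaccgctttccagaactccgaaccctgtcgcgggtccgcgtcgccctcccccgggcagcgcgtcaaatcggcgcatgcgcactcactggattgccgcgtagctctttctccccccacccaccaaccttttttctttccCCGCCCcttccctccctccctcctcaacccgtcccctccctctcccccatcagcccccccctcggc
The PLAU window held GGGCGG at 66, 51 and 40 bases before the start, with no match of either motif before its other start. TGAGTCA lay 28 bases before the start of SERPINB8 and 186 bases before that of PLAUR. LRP1 held 1 Sp1 match, read as CCGCCC, at 66 bases before its start. The count covered 9 windows from 7 of the 9 members. THBD had no entry, and PLAT was not in the count, so no result is given for either. Of the 9 windows, 2 held AP-1 and 5 held Sp1. The 5 were 1 of PLAU, 1 of LRP1, 1 of SERPINB5 with 2 matches that overlap by 1 base, and 2 of SERPINE2. Among all 35116 windows of the same length, 4.20% held AP-1 and 42.6% held Sp1. A match is a run of letters and not a measured binding site, and which start these cells use was not measured.

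In KIF20A_OE against EV, 7 of the 9 members reached the minimum of a mean of 1 FPM and were tested, and 6 of them fell: PLAU, PLAT, PLAUR, SERPINB8, THBD and LRP1. SERPINE2 did not pass the threshold, which was a Benjamini-Hochberg adjusted p of 0.05 in limma on log2(FPM + 1) over 15265 genes. None rose. PLAU and SERPINB8 averaged under 1 FPM in KIF20A_OE and passed the minimum through EV alone. Of all genes tested, 69.6% were called, 23.4% lower and 46.2% higher, and the 25.2% whose 3 KIF20A_OE values lay below all EV values compare with 6 of 7 members. The median log2 fold change was -4.09 over the 7 members and 0.37 over all genes tested. That median of all genes moved to 0.05 with TMM scaling and 0.08 in edgeR on the recovered fragments, where 5282 against 4910 and 5673 against 5216 genes were called higher against lower, compared with 7048 against 3573 in the values as deposited. The members called were the same number, 6, under both.

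**Figure D1:**
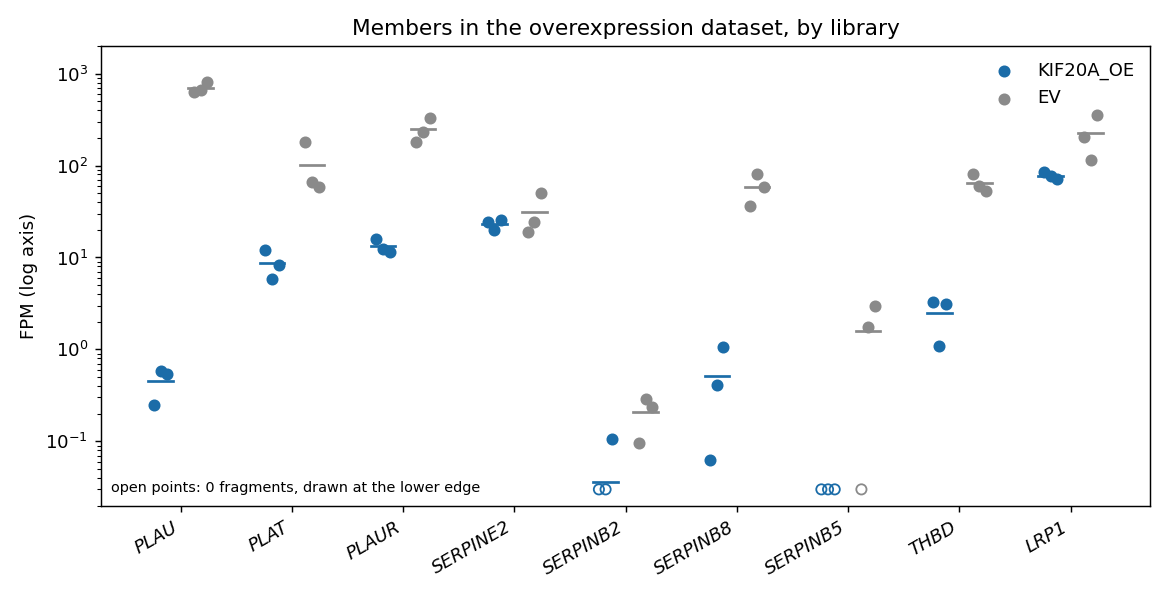
FPM (log axis) of the 9 members in each library labelled KIF20A_OE and each EV library, with a line at the mean of 3 libraries and open points for libraries at 0. Of the tested members, 6 lie lower in all KIF20A_OE libraries, while SERPINE2 overlaps, with 20.0 to 25.5 FPM in KIF20A_OE and 19.0 to 50.1 FPM in EV.

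PLAU encodes urokinase, the activator used for proteolysis at the cell surface (ENSG00000122861.16, chromosome 10 from 73909177 to 73917497, plus strand, GRCh38). It had 0.250, 0.586 and 0.535 FPM in KIF20A_OE, against 627, 667 and 816 FPM in EV. All KIF20A_OE libraries were below 1 FPM and none of the EV libraries was near that level, so the groups lay far apart. In fragments that was 4, 13 and 10 in KIF20A_OE and 13175, 13811 and 13886 in EV, a pooled rate 1466-fold lower with an exact 95% interval of 1007 to 2224 that covers counting error only. The log2 fold change of FPM + 1 was -8.92 ± 0.17 (SE), with a limma adjusted p of 9.92e-09. PLAU shares 31.1% of its exonic bases with C10orf55 on the opposite strand, and the sources used here do not give the strand setting of the counting. C10orf55 had 0.0626, 0 and 0 FPM in KIF20A_OE and 4.76, 6.91 and 6.23 FPM in EV.

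PLAT encodes tissue plasminogen activator, which acts mainly on fibrin (ENSG00000104368.19, chromosome 8 from 42175233 to 42207724, minus strand). Its values were 12.1, 5.82 and 8.30 FPM in KIF20A_OE, against 180, 66.7 and 58.3 FPM in EV. The groups did not overlap, and EV replicate 1 was the highest library. PLAT fell by 3.26 ± 0.43 on the log2 scale of FPM + 1 (limma adjusted p = 0.000292).

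PLAUR encodes the urokinase receptor, which holds the protease at the membrane (ENSG00000011422.12, chromosome 19 from 43646095 to 43670547, minus strand). Levels were 15.8, 12.5 and 11.5 FPM in KIF20A_OE, against 182, 234 and 328 FPM in EV. Every KIF20A_OE library was under every EV library, and the spread among EV libraries was 1.81-fold from lowest to highest. The log2 fold change was -4.09 ± 0.22 (limma adjusted p = 1.12e-06). Per kb of exon, the ratio of PLAU to PLAUR was 0.0239, 0.0709 and 0.0703 in KIF20A_OE and 5.22, 4.32 and 3.76 in EV. The ratio of PLAT to PLAU per kb was 21.6, 4.42 and 6.91 in KIF20A_OE, against 0.128, 0.0446 and 0.0318 in EV, so the order of the activators was opposite in the 2 groups.

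Among the serpins, SERPINE2 encodes protease nexin 1, which inhibits thrombin, urokinase and plasmin (ENSG00000135919.14, chromosome 2 from 223975112 to 224039319, minus strand). It had 24.0, 20.0 and 25.5 FPM in KIF20A_OE, against 19.0, 24.1 and 50.1 FPM in EV. The groups overlapped, and EV replicate 3 was the only library above 26 FPM. The log2 fold change was -0.29 ± 0.32 with a 95% interval of -1.03 to 0.44 and a limma adjusted p of 0.430. The value was 0.10 without EV replicate 3, -0.63 with TMM scaling (adjusted p = 0.10) and -0.78 in edgeR on the recovered fragments (adjusted p = 0.0689).

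SERPINB8 encodes an intracellular clade B serpin that can inhibit furin (ENSG00000166401.15, chromosome 18 from 63969925 to 64019779, plus strand). Its levels were 0.0626, 0.406 and 1.07 FPM in KIF20A_OE, against 36.7, 80.0 and 57.8 FPM in EV. No KIF20A_OE library came near the EV range. SERPINB8 fell by 5.27 ± 0.34 on the log2 scale (limma adjusted p = 2.83e-06), and pooled fragments, 30 in KIF20A_OE and 3409 in EV, gave a rate 110-fold lower (exact 95% interval 76.9 to 163, counting error only). HMSD, which overlaps it on the same strand over 6.31% of its exonic bases, had 0 fragments in every KIF20A_OE library and 3.05, 10.2 and 8.58 FPM in EV.

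The other pair of clade B serpins was too low for the test. SERPINB2 encodes plasminogen activator inhibitor 2, a urokinase inhibitor (ENSG00000197632.9, chromosome 18 from 63871692 to 63903890, plus strand), and it had 0, 0 and 2 fragments in KIF20A_OE and 2, 6 and 4 in EV. The pooled ratio of KIF20A_OE to EV was 0.172 with an exact 95% interval of 0.0187 to 0.773, which covers counting error only, and 1 KIF20A_OE library lay inside the EV range. SERPINB5 encodes maspin, a serpin of mammary epithelium known for lower levels in breast cancer (ENSG00000206075.14, chromosome 18 from 63476761 to 63505085, plus strand), and it had 0 fragments in all 3 KIF20A_OE libraries, against 0, 36 and 51 in EV. Against a floor of 3 fragments per library it was at least 9.80-fold lower in KIF20A_OE, but EV replicate 1 was at 0 too, so the groups touched.

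THBD encodes thrombomodulin, the membrane protein that turns thrombin towards protein C and, with thrombin, towards an inhibitor of fibrin breakdown (ENSG00000178726.7, chromosome 20 from 23045633 to 23049741, minus strand). It had 3.32, 1.082 and 3.11 FPM in KIF20A_OE, against 80.8, 60.6 and 53.3 FPM in EV. The groups were clearly apart, and KIF20A_OE replicate 2 was the lowest library. The log2 fold change was -4.29 ± 0.30 (limma adjusted p = 5.15e-06).

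LRP1 encodes the large endocytic receptor that clears activator and serpin complexes together with the urokinase receptor (ENSG00000123384.14, chromosome 12 from 57128493 to 57213351, plus strand). Values were 84.3, 76.5 and 70.6 FPM in KIF20A_OE, against 203, 116 and 352 FPM in EV. The KIF20A_OE libraries lay close together and below all EV libraries, which spread 3.04-fold. LRP1 fell by 1.38 ± 0.35 (limma adjusted p = 0.00864), the smallest fall among the 6, and the value was -0.99 without EV replicate 3 and -1.78 without EV replicate 2. The ratio of PLAU to LRP1 per kb was 0.0210, 0.0541 and 0.0536 in KIF20A_OE and 21.8, 40.7 and 16.4 in EV.

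Markers of other cells known for these genes were set beside the falls. The 7 endothelial markers, for THBD and PLAT, summed to 1.39 to 36.6 FPM in KIF20A_OE and 18.3 to 31.7 FPM in EV, with 1 of 7 and 3 of 7 reaching 1 FPM, and EMCN was not listed. The highest sum came from PECAM1, at 35.8 FPM in KIF20A_OE replicate 2. The 7 leukocyte markers, for PLAUR and SERPINB2, summed to 1.06 to 1.34 FPM in KIF20A_OE, where 4 of the 7, PTPRC and LYZ among them, were at 0 or not listed, and to 5.94 to 10.2 FPM in EV. The 7 fibroblast markers, for PLAU, SERPINE2 and LRP1, summed to 80.5 to 102.5 FPM in KIF20A_OE and 27.5 to 99.4 FPM in EV, mostly COL1A1 in KIF20A_OE. They went both ways in KIF20A_OE against EV. COL1A1 (log2 fold change 1.21) and COL3A1 (2.23) were called higher, and COL1A2 (-3.40) and PDGFRB (-1.82) lower. The 6 basal markers, for SERPINB5, summed to 10.8 to 19.9 FPM in KIF20A_OE and 6.28 to 15.9 FPM in EV. Of these, ACTA2 was called higher (1.97) and KRT14 lower (-1.06), while OXTR and TP63 were not called. The part of these other cells in the results was not tested, and in bulk RNA fewer cells of a type and less RNA per cell cannot be told apart.

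In the depletion dataset no member was called higher or lower in SG1 or SG3. The low-count filter kept 7 members, and 0 of 7 passed an edgeR quasi-likelihood adjusted p of 0.05 in SG1 against CTRL, SG3 against CTRL, their mean against CTRL, or SG1 against SG3. Of the 16786 genes tested, 0% passed in each of the 4 comparisons. An unadjusted p under 0.05 was reached by 0, 0, 0 and 1 of the 7 members, and by 4.59%, 1.19%, 1.76% and 4.74% of all genes in the same order. DESeq2 called 0 members as well. In no comparison did the libraries of a member lie all above or all below those of the other group, which 4.96% and 7.21% of all genes did in SG1 against CTRL, 2.28% and 2.38% in SG3 against CTRL, 0.536% and 0.441% for both together against CTRL, and 6.26% and 4.55% in SG1 against SG3. The median log2 fold change of the members was 0.08 in SG1 and 0.01 in SG3 against CTRL, beside -0.0019 and -0.01 for all genes. Both comparisons share the CTRL libraries. In the first principal component, with 22% of the variance, CTRL replicate 3 and SG3 replicate 1 lay with the SG1 libraries. Leaving out CTRL and SG3 libraries that lay with SG1 in the same data favours calls in comparisons with SG1, so the fit without them only describes. Without these 2 libraries edgeR called 225 genes higher and 540 lower of 17108 in SG1 against CTRL and 501 higher and 1027 lower in SG1 against SG3, and still 0 in SG3 or the mean against CTRL. No member was among those called in that fit, in which PLAT had a log2 fold change of -0.49 in SG1 against CTRL (edgeR adjusted p = 0.0722) and PLAU of -0.45 in SG1 against SG3 (edgeR adjusted p = 0.0772).

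**Figure D2:**
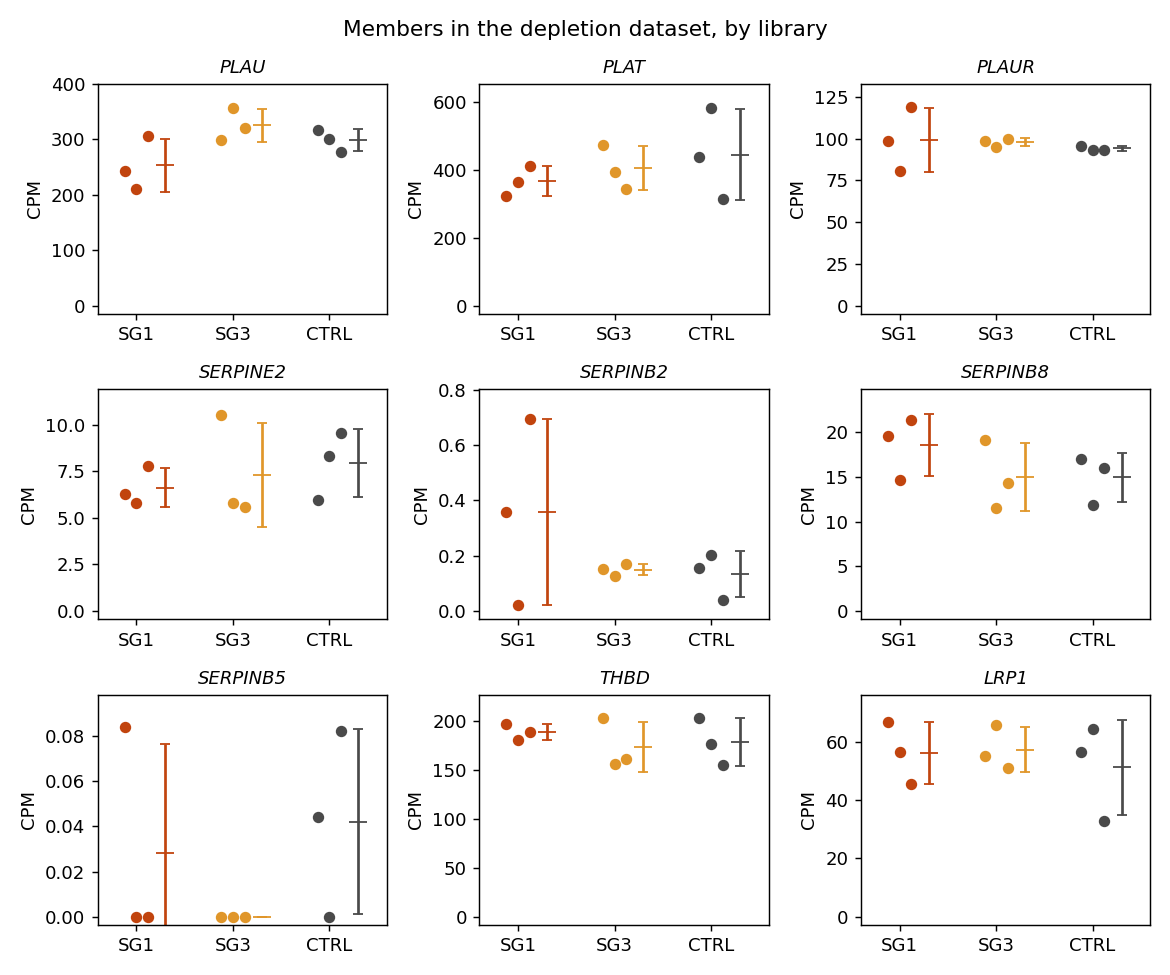
CPM of the 9 members in each SG1, SG3 and CTRL library, with the mean ± SD of 3 libraries to the right of the points. The groups overlap or touch for every member, and SERPINB2 and SERPINB5 stay below 1 CPM.

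PLAU had 243, 210 and 305 CPM in SG1, 298, 356 and 320 CPM in SG3 and 317, 300 and 277 CPM in CTRL. The lowest values were SG1 replicates 1 and 2, while SG1 replicate 3 lay inside the ranges of the other groups. Its log2 fold change was -0.24 ± 0.15 in SG1 (95% interval -0.56 to 0.09, edgeR adjusted p = 0.913) and 0.12 ± 0.15 in SG3 (-0.20 to 0.45, adjusted p = 1.00) against CTRL. SG1 against SG3 gave -0.36 ± 0.15, with an unadjusted p of 0.0308 and an edgeR adjusted p of 0.861, the only member under 0.05 before adjustment.

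PLAT had 323, 364 and 411 CPM in SG1, 473, 394 and 344 CPM in SG3 and 437, 580 and 313 CPM in CTRL. CTRL replicate 2 was the highest library and CTRL replicate 3 the lowest, so the control range enclosed both knockdown groups. The intervals of the log2 fold change ran from -0.70 to 0.15 in SG1 and from -0.56 to 0.29 in SG3.

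PLAUR had 98.4, 80.3 and 119 CPM in SG1, 98.5, 95.1 and 99.8 CPM in SG3 and 95.7, 93.4 and 93.1 CPM in CTRL. SG1 held both the highest and the lowest library. The intervals against CTRL, -0.23 to 0.39 in SG1 and -0.25 to 0.37 in SG3, were the narrowest of the 7 members.

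SERPINE2 had 6.30, 5.78 and 7.76 CPM in SG1, 10.5, 5.79 and 5.57 CPM in SG3 and 5.96, 8.30 and 9.52 CPM in CTRL. SG3 replicate 1 was its highest library, and the groups overlapped. SERPINB8 had 19.6, 14.7 and 21.4 CPM in SG1, 19.1, 11.6 and 14.3 CPM in SG3 and 17.0, 11.8 and 16.0 CPM in CTRL. Its log2 fold change in SG1, 0.31 ± 0.22, was the highest among the members and had a 95% interval of -0.15 to 0.78 (edgeR adjusted p = 0.913).

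SERPINB2 and SERPINB5 did not pass the low-count filter. SERPINB2 had 17, 1 and 29 counts in SG1, 8, 6 and 7 in SG3 and 7, 10 and 2 in CTRL. Within SG1 the libraries differed 33.9-fold in CPM, and SG1 replicate 2 was below every other library. SERPINB5 had 4, 0 and 0 counts in SG1, 0, 0 and 0 in SG3 and 2, 0 and 4 in CTRL, where 3 counts, the limit that a count of 0 allows, equal 0.0588 to 0.0734 CPM per library.

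THBD had 197, 180 and 189 CPM in SG1, 203, 156 and 161 CPM in SG3 and 204, 177 and 155 CPM in CTRL. All SG1 libraries fell within the CTRL range, and the intervals were -0.23 to 0.39 in SG1 and -0.35 to 0.27 in SG3. LRP1 had 66.8, 56.5 and 45.5 CPM in SG1, 55.2, 66.0 and 51.2 CPM in SG3 and 56.6, 64.5 and 33.1 CPM in CTRL, with CTRL replicate 3 the lowest. Its intervals were -0.33 to 0.60 in SG1 and -0.30 to 0.63 in SG3. Without CTRL replicate 3 its log2 fold change was -0.12 in SG1 and -0.08 in SG3, against 0.13 and 0.16 with all 9 libraries.

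**Figure D3:**
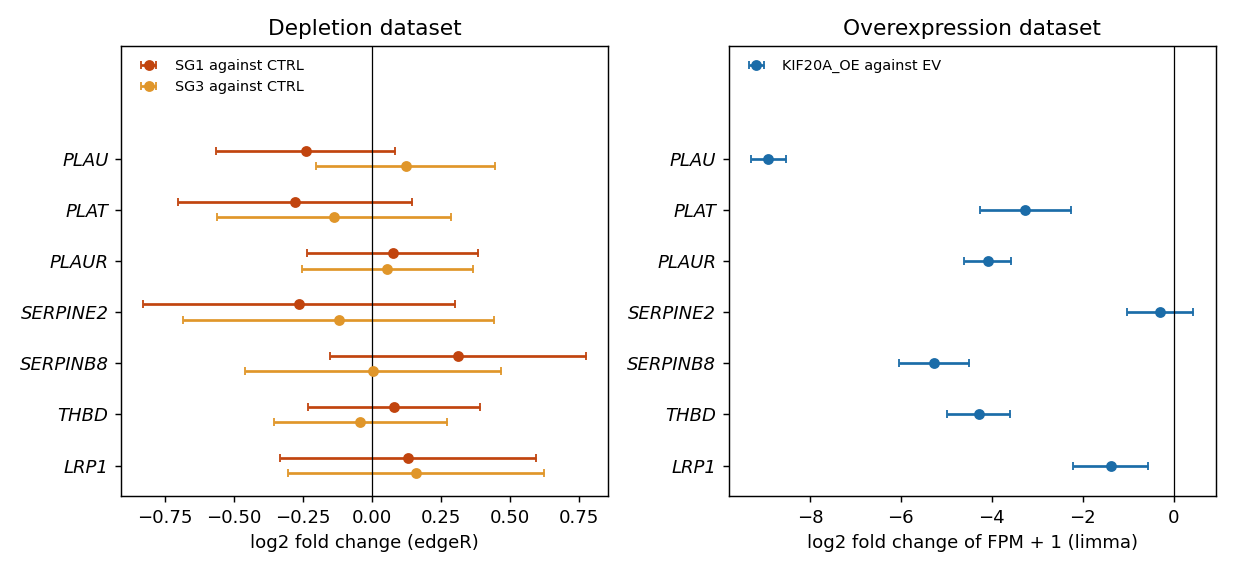
Log2 fold changes with 95% intervals of the 7 tested members, for SG1 and SG3 against CTRL in edgeR (left) and for KIF20A_OE against EV in limma (right), on horizontal axes of different length. All depletion intervals include 0, while in KIF20A_OE only that of SERPINE2, -1.03 to 0.44, does.

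Within a library, levels per kb of exon were ranked among 15954 protein-coding genes listed in both tables. PLAU held the highest rank of the members in every group but KIF20A_OE, with a median percentile of 97.4 in SG1, 98.4 in SG3, 97.9 in CTRL and 99.4 in EV, against 16.1 in KIF20A_OE. PLAT had median percentiles of 95.3 in SG1, 96.0 in SG3 and 96.7 in CTRL, and in the other dataset 31.5 in KIF20A_OE and 70.1 in EV. THBD stood at 94.6 in SG1, 93.0 in SG3 and 93.6 in CTRL, and at 26.7 in KIF20A_OE and 78.4 in EV. PLAU lay above PLAT in each depletion group without overlap, while the ranges of PLAT and THBD overlapped in SG3 and CTRL.

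PLAUR came next, at 86.4 in SG1, 86.7 in SG3 and 85.6 in CTRL, and at 42.1 in KIF20A_OE, against 93.1 to 96.8 in EV. SERPINB8 and LRP1 did not separate in the depletion groups, at 42.9 to 51.8 and 41.0 to 49.7 over those 9 libraries. LRP1 had the highest median percentile of the members in KIF20A_OE, 46.4, against 69.9 in EV, followed there by PLAUR and SERPINE2, whose ranges of 40.0 to 45.7 and 39.1 to 41.7 overlapped. SERPINE2 ranked at 33.1 to 37.8 over the depletion libraries and 42.3 to 56.9 in EV. SERPINB2 and SERPINB5 were the lowest members in EV and the depletion groups, with medians of 5.75 to 29.1. The datasets were scaled separately, so ranks are set side by side without a test.

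**Figure D4:**
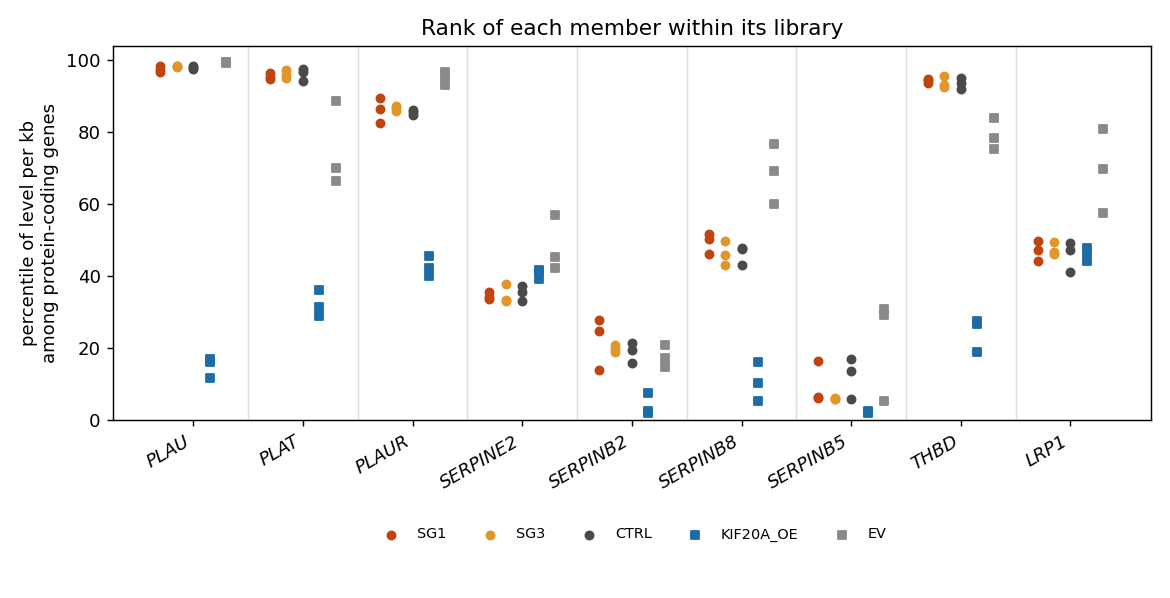
Percentile of each member's level per kb of exon among protein-coding genes of the same library, with 3 points for each of SG1, SG3, CTRL, KIF20A_OE and EV. PLAU has a median of 16.1 in KIF20A_OE and of 97.4 to 99.4 in the other 4 groups.

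For each of the 7 tested members, the genes with the nearest pattern were found as the smallest root mean square difference of log2 values, centred in each dataset, over 15 libraries. PLAU was nearest to AXL, a receptor tyrosine kinase, and APCDD1L, with differences of 0.24 and 0.32 beside a spread of its own of 2.83. PLAUR was nearest to AC022034.1 and ENC1, both at 0.15, THBD to APOL6 and TMBIM1, at 0.18 and 0.19, and SERPINB8 to CASP4 and FAM111B, at 0.24 and 0.25. PLAT was nearest to QSOX1 and ARHGAP40, both at 0.27, SERPINE2 to ARAP2 and MOB1B, both at 0.20, and LRP1 to P2RY6 and LINC00654, at 0.16 and 0.19. Between members, PLAUR and THBD were closest to each other, with a difference of 0.37. Many other genes were nearer to each, since THBD ranked 175 among the genes near PLAUR and PLAUR ranked 111 among those near THBD. These likenesses describe the 15 libraries, which include the difference between KIF20A_OE and EV.

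Other genes of the pathway, 69 in 8 lists, were counted in the same tests. In KIF20A_OE against EV 46 were tested, of which 31 fell and 7 rose, beside 23.4% and 46.2% of all genes. The minimum was a mean over both groups, so a gene could be tested through the group where it was high. SERPINA5 was no longer tested without EV replicate 3. With a pseudocount of 0.1 in place of 1, the log2 fold change of LRP2 moved from 2.58 to 3.82 and that of ITGB3 from -4.65 to -5.64. In the depletion dataset 50 were tested and 0 were called in any comparison, with 3, 0, 2 and 2 at an unadjusted p under 0.05 in SG1 against CTRL, SG3 against CTRL, the mean against CTRL and SG1 against SG3. Of all genes tested, 4.59%, 1.19%, 1.76% and 4.74% reached that level in the same order. The lists were chosen with earlier results of these data known.

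**Figure D5:**
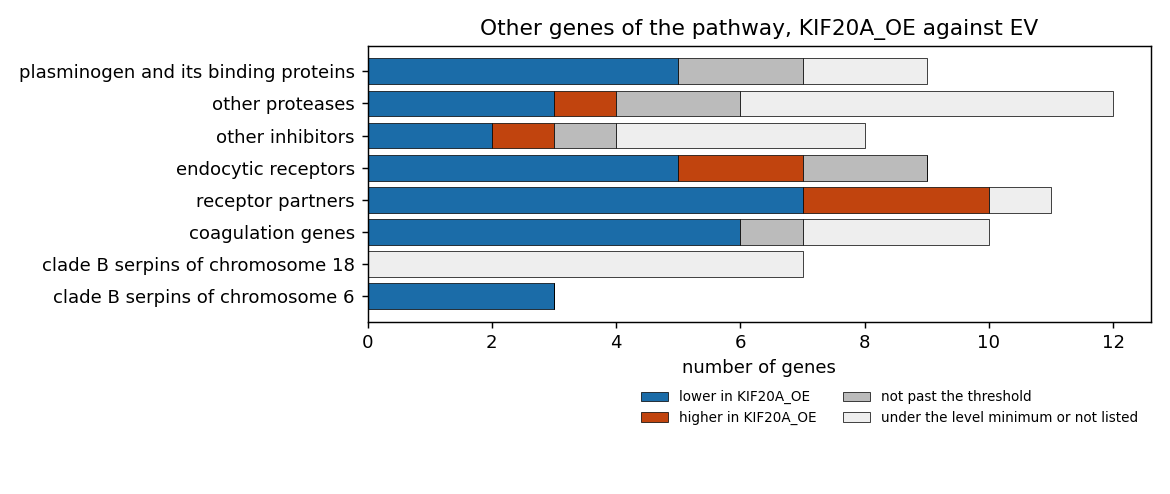
Number of genes in each of 8 pathway lists that were lower, higher or not past the threshold in KIF20A_OE against EV, or were not tested. All 3 clade B serpins of chromosome 6 were lower, beside 23.4% of all genes tested, and none of the 7 listed on chromosome 18 reached the minimum.

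Of the 9 genes for plasminogen and its binding proteins, 7 were tested and 5 fell (ANXA2, S100A10, ENO1, KRT8 and CTSA), with none called higher. Beside this and each list below stand the 23.4% of all genes that were called lower and the 46.2% called higher. ANXA2 and S100A10 form the annexin A2 complex, which binds plasminogen and tissue plasminogen activator at the membrane. ANXA2 averaged 209 ± 66.0 FPM in KIF20A_OE and 1845 ± 151 FPM in EV (SD, n = 3 each, limma adjusted p = 3.54e-06). S100A10 averaged 129 ± 40.9 FPM in KIF20A_OE and 465 ± 28.5 FPM in EV (limma adjusted p = 7.77e-05). PLG, which encodes plasminogen, had 0 counts in all 9 depletion libraries.

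The receptor partners were all called where tested, 7 lower and 3 higher out of 10. Of all genes tested, 69.6% were called, 23.4% lower and 46.2% higher. Those lower were the integrins ITGA3, ITGB1, ITGA5, ITGB5, ITGB3 and ITGAV and the growth factor receptor EGFR. ITGA3, a laminin-binding integrin chain, averaged 16.7 ± 0.815 FPM in KIF20A_OE and 1963 ± 214 FPM in EV (limma adjusted p = 9.92e-09). ITGAV, with an adjusted p of 0.0439 in limma and 112, 61.9 and 80.4 FPM in KIF20A_OE against 141, 100 and 136 FPM in EV, was no longer called without EV replicate 1 (0.118), EV replicate 3 (0.107), KIF20A_OE replicate 2 (0.149) or KIF20A_OE replicate 3 (0.111). The 3 higher genes, PIGA, PIGK and GPLD1, act in making, attaching or cutting the lipid anchor by which the urokinase receptor is held. PIGK averaged 136 ± 25.4 FPM in KIF20A_OE and 70.3 ± 3.41 FPM in EV (limma adjusted p = 0.000604). Its log2 fold change of 0.93 was smaller, at 0.58, both with TMM scaling and in edgeR on the recovered fragments, where it was still called.

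Among the endocytic receptors and their chaperone, VLDLR, SORT1, MRC2 and IGF2R were called lower, and LRP2 and LRPAP1 rose. LRPAP1, a chaperone of LRP1 and its relatives, averaged 235 ± 44.8 FPM in KIF20A_OE and 95.5 ± 11.8 FPM in EV (limma adjusted p = 0.000161). Its log2 fold change was 1.28, and 0.93 with TMM scaling. A relation between LRPAP1 and LRP1 was not tested.

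Of 10 coagulation genes, 7 were tested and 6 fell, beside 23.4% of all genes: F3, F2R, F2RL1, PROS1, TFPI and THBS1. F3, which encodes tissue factor, had 5.13, 5.23 and 4.28 FPM in KIF20A_OE and 562, 297 and 97.7 FPM in EV. THBS1, thrombospondin 1, averaged 1.17 ± 0.0771 FPM in KIF20A_OE and 294 ± 78.7 FPM in EV (limma adjusted p = 7.15e-08). PROCR, the protein C receptor that works beside thrombomodulin, did not pass the threshold, at 18.2 ± 5.17 FPM in KIF20A_OE and 23.4 ± 1.56 FPM in EV (log2 fold change -0.37, limma adjusted p = 0.142). It was called lower with TMM scaling in limma (-0.71, adjusted p = 0.0163), in edgeR on the recovered fragments (-0.72, adjusted p = 0.0242) and in limma without KIF20A_OE replicate 3 (-0.58, adjusted p = 0.0338).

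The other proteases and inhibitors went both ways. Among proteases 3 of 6 tested fell (CTSB, CTSD and PRSS23) and F12 rose, and among inhibitors 2 of 4 fell (SERPINA5 and TFPI2) and SERPINF1 rose. With 69.6% of all genes called, the number of calls in these 2 lists says little about them. F12, coagulation factor XII, averaged 30.4 ± 3.97 FPM in KIF20A_OE and 3.03 ± 0.243 FPM in EV (limma adjusted p = 2.02e-06). SERPINB1, SERPINB6 and SERPINB9, clade B serpins of another cluster on chromosome 6, all fell. SERPINB9, the granzyme B inhibitor, averaged 6.86 ± 1.03 FPM in KIF20A_OE and 52.1 ± 12.6 FPM in EV (limma adjusted p = 7.30e-06). SERPINB7, the only one of the 7 listed on chromosome 18 to be tested in the depletion dataset, had 0 fragments in each KIF20A_OE library and 0.190, 0.387 and 0.588 FPM in EV. SERPINF1, the serpin also known as PEDF, had 67.6, 82.5 and 61.7 FPM in KIF20A_OE, against 4.48, 3.77 and 50.2 FPM in EV (limma adjusted p = 0.0221). Its call was lost in edgeR on the recovered fragments (adjusted p = 0.149) and without EV replicate 1 (0.0596), EV replicate 2 (0.0752) or KIF20A_OE replicate 2 (0.0566). Under TMM scaling PLGRKT and CTSL, which were not called, changed sign.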

How the data were processed

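RNA was sequenced from 15 libraries of 5 groups, and the sample titles gave each library its group and number. For the depletion dataset the authors deposited raw counts per gene. For the overexpression dataset the labels name FPKM, but each deposited column summed to 1000000 and 100% of values were whole multiples of its step within 0.001 fragments, so they were used as fragments per 1000000 (FPM, the fragment form of CPM), a unit the planned test on the log2 scale also suits. Tools named per the submitters' processing notes are limma 3.50.3, Subread 1.6.3 with featureCounts, STAR 2.7.3a and Trim Galore 0.6.4, with build hg38. The sources used here do not give the annotation release or the strand setting, so reads shared with overlapping genes or paralogs may be split in unknown ways.

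The count test was edgeR 4.0.16, quasi-likelihood (TMM, default expression filter, 9 libraries in 1 fit). FPM values were tested with limma 3.58.1 (trend, robust) on log2(FPM + 1) where a gene averaged 1 FPM or more, a scale that understates changes of low genes. Adjusted p-values are Benjamini-Hochberg values over all genes tested, with a threshold of 0.05. CPM use TMM library sizes. Coordinates and exon lengths are from GENCODE 29 on GRCh38, which held 96.3% and 97.3% of the gene identifiers of the 2 tables without version. Both tests were checked on simulated data, in which many small changes were missed. There edgeR recovered 17.9% to 23.9% of 1.5-fold, 55.2% to 71.6% of 2-fold and 81.8% to 86.4% of 4-fold changes over the 4 depletion comparisons. For limma the shares were 2.99%, 25.4% and 77.3%. The simulations drew counts around reference group means, with the spread of each gene taken from a trend over level. They changed 66 or 67 genes at each fold and held no split of libraries within a group. The real data differ, with libraries of different groups lying together in the depletion dataset and 69.6% of genes called in KIF20A_OE against EV. The shares may therefore overstate what the tests find there. Exact intervals and the floor of 3 counts cover counting error only. The groups were too small for an exact permutation test of single values, whose smallest two-sided p for 3 against 3 is 0.1.

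Alternatives were DESeq2 1.42.0, other scalings, filters and pseudocounts, halved counts, recovered fragments in edgeR, a replicate block and each library left out. The members, lists and markers were chosen with earlier results of these data known. Named were all members, KIF20A, pathway genes past the threshold and the 2 highest per length of each list, and for each tested member the 3 genes nearest in pattern, of which 2 are printed; the third for PLAU and 1 pathway gene that is in the counts are not reported here.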

Additional observations from a re-analysis of the deposited data

How the results depend on the processing

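The number of members called was the same under every alternative run, 6 in KIF20A_OE against EV and 0 in each depletion comparison. With 1 library, or CTRL replicate 3 and SG3 replicate 1 together, left out, 36 of 322 log2 fold changes of members changed sign, none of them of a called member. They then ran from -0.031 to 0.17 for THBD, -0.12 to 0.33 for LRP1 and -0.073 to 0.21 for PLAUR in SG1 against CTRL. For SG3 against CTRL they ran from -0.25 to 0.059 for THBD, -0.45 to 0.14 for PLAT, -0.18 to 0.16 for SERPINB8, -0.45 to 0.027 for SERPINE2 and -0.082 to 0.39 for LRP1. With SG1 and SG3 averaged against CTRL they ran from -0.47 to 0.052 for PLAT, -0.14 to 0.11 for THBD, -0.10 to 0.36 for LRP1, -0.14 to 0.016 for PLAU and -0.0092 to 0.15 for PLAUR. For SG1 against SG3 they ran from -0.13 to 0.13 for PLAUR, -0.19 to 0.10 for LRP1 and -0.31 to 0.19 for SERPINE2. For KIF20A_OE against EV they ran from -0.57 to 0.10 for SERPINE2. Under other settings, 3 of 203 changed sign, SERPINB8 in SG3 against CTRL at -0.0031 with the replicate block, and PLAUR in SG1 against SG3 at -0.015 with no low-count filter and -0.0030 with only the groups compared. The cause was not tested. Same-numbered libraries deviated with correlations of -0.11 to 0.16, so the numbers were not taken to pair the samples, and the replicate block left 0 members called in the depletion comparisons and 6 in KIF20A_OE against EV. Across alternatives added after seeing the data, 29 to 33 pathway genes were called lower and 6 to 9 higher.

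Over all genes in the depletion dataset, edgeR called 0 in each comparison, while DESeq2 called 3 higher in SG1 and 3 higher and 1 lower in SG3 against CTRL, and edgeR with no low-count filter 26 higher and 65 lower in SG1, 5 higher and 3 lower in SG3. Leaving out CTRL replicate 3 and SG3 replicate 1 moved the counts of edgeR most, to 225 higher and 540 lower in SG1 against CTRL and 501 higher and 1027 lower in SG1 against SG3. Those libraries lay with SG1 in the same data, so their removal favours calls in comparisons with SG1. In KIF20A_OE, PLAU and SERPINB8 rest on 27 and 30 fragments, so the size of those falls is limited by depth and by the pseudocount: with 0.1 in place of 1 the log2 fold changes were -10.35 and -6.92, and in edgeR on the recovered fragments -10.89 and -7.14.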
